A study of Mus musculus with 8 samples.

Results

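Mitochondrial and peroxisomal fatty acid oxidation, the use of ketone bodies and the regulators of this pathway were followed through 33 named genes of the mouse bladder. The genes were taken by symbol, and all 33 stood among the 38926 symbols of the deposited count tables. Bladder tissue came from mice with a nerve-sparing partial bladder outlet obstruction (NeMO, 4 libraries) or from sham-operated mice (Sham, 4 libraries), and polyA RNA was sequenced as single-end reads from a directional kit. Strain, sex, age and the time after surgery were not given in the sources used here, and the labels name no treatment other than the operation. No label ties a library to 1 animal, so p-values measure the spread between these libraries, which may in part be technical. Batch marks in the submitted file names are crossed with the operation: batch 1 holds 2 NeMO and 3 Sham libraries, batch 2 holds 2 NeMO and 1 Sham library (replicate 4). Library totals ran from 27212499 to 36375313 counts.

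Fatty acid oxidation is the route by which cells take energy from fat. Long-chain acyl-CoA enters the mitochondrion through the carnitine shuttle and is shortened by a repeating spiral of dehydrogenation, hydration, a second dehydrogenation and thiolytic cleavage. The electrons of the first step pass through the electron transfer flavoprotein into the respiratory chain. The nuclear receptor PPAR-alpha and the coactivators PGC-1alpha and PGC-1beta are known regulators of these genes in tissues with a high oxidative demand. Extrahepatic tissues such as muscle can also burn ketone bodies made by the liver.

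Genes for the enzymes of the spiral itself had slightly lower mean levels in NeMO, none past the test, while the entry enzyme gene Cpt1a and the regulators stood at or above 0. The latter have no settled direction: Cpt1a, Ppara and Ppargc1a changed sign in other settings. Ppara (0.20, SE 0.18) and Ppargc1b (0.19, SE 0.21) had wide errors. All 19 genes for acyl-CoA dehydrogenases, later spiral steps, unsaturated fatty acids and electron transfer had a log2 fold change (NeMO minus Sham) below 0, although Acadsb stood at 0.0027 with DESeq2 and its size factors, and Acadsb (0.0931), Acaa1a (0.00443) and Eci2 (0.00291) were above 0 within batch 2. The edgeR values ran from −0.38 to −0.00 with a median of −0.19, so each difference was small. None of the 33 members passed the gene test (edgeR quasi-likelihood test with batch and group as terms, Benjamini-Hochberg adjustment over all 16370 genes tested, threshold 0.05). Of all genes tested, 12 passed, which is 0.0733%, and 5 of these were lower in NeMO (0.0305%). Without NeMO replicate 1, 650 genes and 3 members passed, and without NeMO replicate 4 or Sham replicate 4 no gene did (2549 and 1656 genes at an unadjusted p under 0.05).

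At an unadjusted p under 0.05, 15 members (45.5%) were lower in NeMO, against 9.14% of all genes tested. That number was 5 without NeMO replicate 3, 8 without Sham replicate 2, 8 without Sham replicate 4 and 10 without NeMO replicate 4. The background moved too. In these fits 2271, 2570, 1656 and 2549 of about 16600 genes stood at that p in either direction, against 3032 of 16370 in the main fit. In the main fit 2 members were higher at that p, Cpt1c and Acox3, against 9.38% of all genes. These shares are not at like power, since all genes tested include weakly counted ones with wide errors (Xkr4 SE 0.43, against 0.07 for Hadh). The members were also chosen with earlier results of these data known. Of the 33 members 26 (78.8%) had a log2 fold change below 0, against 51.7% of all genes, and the median was −0.17 against −0.01 over all genes. The ranges of the 2 groups were separate for 7 members that were lower in NeMO (3.81% of all genes) and for 1 that was higher (4.39% of all genes). DESeq2's Wald test on the same counts called 4 members, of which Hadh, Etfb and Acat1 fell (2.5% of all genes fell) and Cpt1c rose (3.32% of all genes rose).

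**Figure D1:**
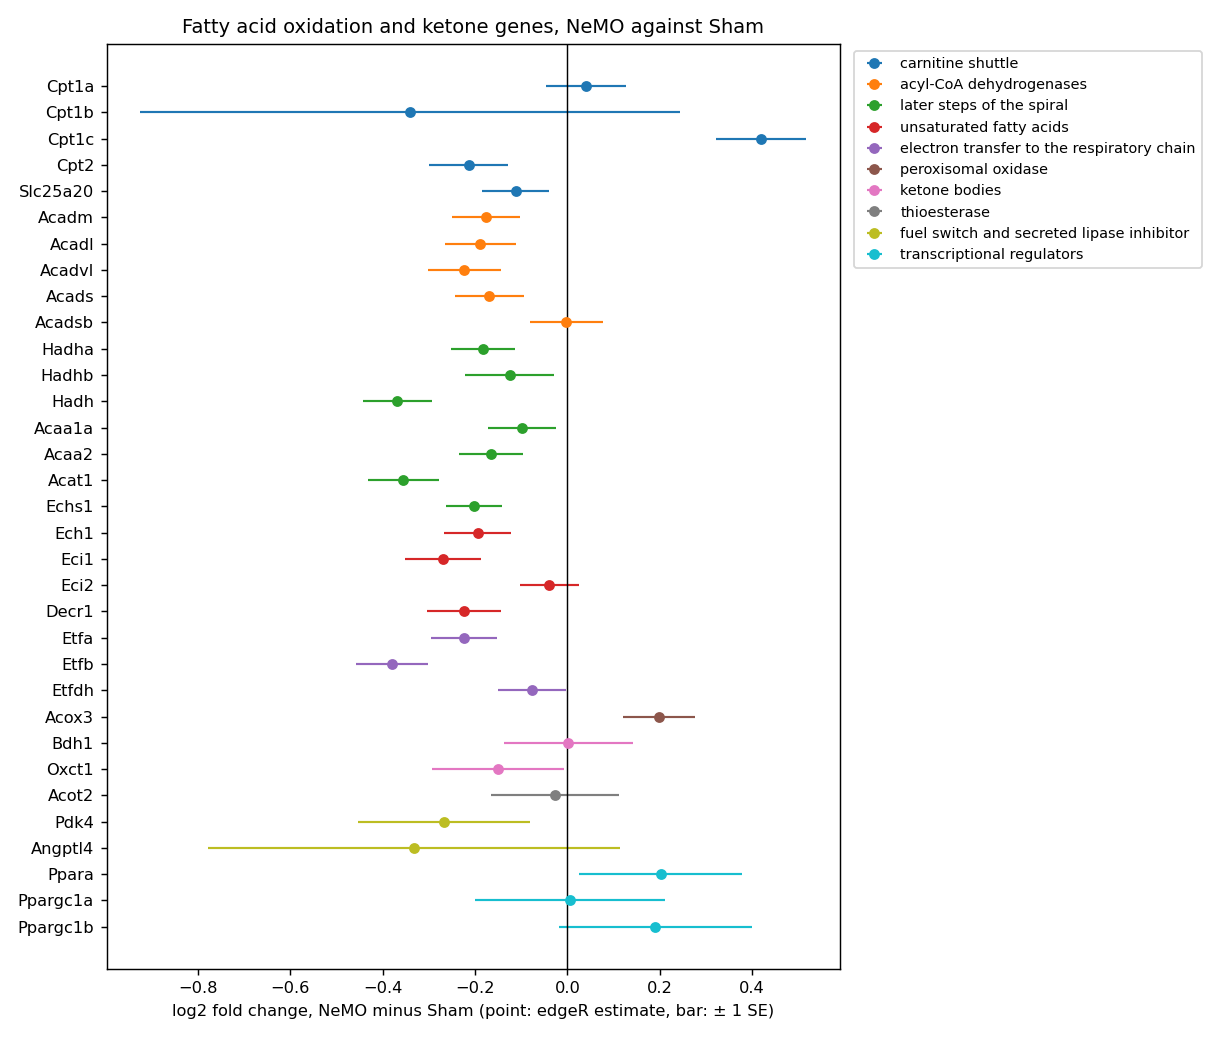
Log2 fold change (NeMO minus Sham, x axis) of the 33 genes (y axis), coloured by role, with points for the edgeR estimate and bars for 1 standard error. The 19 genes of the spiral and of electron transfer all lie at or left of 0, while Cpt1c (0.42) and Acox3 (0.20) lie to the right.

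The start regions of 6 members are shown because these genes carry the clearest differences or share the stretch between their starts. Hadh, Etfb and Cpt1c have the smallest p among the members with an entry, Acadm is the textbook PPAR-alpha target of the spiral, and Hadha and Hadhb are transcribed away from each other from a shared stretch. Sequences are from RefSeq on GRCm38.p6, the assembly that mm10 names, and run 5′ to 3′ on the strand of the gene up to the start that RefSeq annotates (for Hadha and Hadhb, the stretch on the strand of Hadhb, which ends 5 bases short of it). Capitals mark matches on either strand to the GC box GGGCGG, which is read by the Sp1 family of factors, and to the CCAAT box. They also mark the site of NRF1, a regulator of respiratory chain genes, and the nuclear receptor hexamer with a flanking A, AAGGTCA.
Hadh, chr3:131272102-131272351, minus strand: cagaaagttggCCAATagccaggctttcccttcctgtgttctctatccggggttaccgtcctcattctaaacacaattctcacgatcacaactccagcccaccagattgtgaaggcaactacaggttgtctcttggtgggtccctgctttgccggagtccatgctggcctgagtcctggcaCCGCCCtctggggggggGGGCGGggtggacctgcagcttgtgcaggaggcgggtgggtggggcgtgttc
Etfb, chr7:43443822-43444071, plus strand: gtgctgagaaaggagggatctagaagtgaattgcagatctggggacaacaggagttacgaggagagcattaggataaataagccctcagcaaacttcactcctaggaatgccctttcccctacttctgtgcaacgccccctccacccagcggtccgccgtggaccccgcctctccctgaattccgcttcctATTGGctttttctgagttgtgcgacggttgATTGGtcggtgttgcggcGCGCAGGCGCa
Cpt1c, chr7:44974852-44975101, minus strand: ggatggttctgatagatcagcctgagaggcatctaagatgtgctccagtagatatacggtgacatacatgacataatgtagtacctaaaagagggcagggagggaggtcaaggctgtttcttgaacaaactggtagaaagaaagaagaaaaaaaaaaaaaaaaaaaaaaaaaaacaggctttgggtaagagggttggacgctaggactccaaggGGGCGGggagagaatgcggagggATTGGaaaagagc
Acadm, chr3:153944644-153944893, minus strand: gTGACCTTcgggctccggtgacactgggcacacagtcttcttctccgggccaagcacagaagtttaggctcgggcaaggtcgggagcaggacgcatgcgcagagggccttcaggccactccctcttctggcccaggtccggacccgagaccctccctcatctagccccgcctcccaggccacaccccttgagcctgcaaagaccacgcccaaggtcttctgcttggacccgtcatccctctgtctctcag
Hadha and Hadhb, chr5:30155163-30155247, plus strand: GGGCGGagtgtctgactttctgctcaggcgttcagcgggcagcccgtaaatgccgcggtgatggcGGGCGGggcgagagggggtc

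Of the 33 members, 27 had an upstream entry (28 windows of 250 bases), and Angptl4, Decr1, Cpt1b, Ppargc1b, Acaa2 and Acat1 had none. A GC box stood in 17 of the 28 windows (60.7%), against 32.7% of all 32851 windows of the same length. Those 32851 windows were not limited to the genes tested here, so the 2 sets may differ in more than the pathway. The CCAAT box stood in 10 (35.7%, against 33.8%) and the NRF1 site in 3 (10.7%, against 3.7%), those of Etfb, Etfdh and Ppara. The extended nuclear receptor hexamer was found upstream of Acadm only (3.6% of the windows, against 4.1%). The DR1 element, the direct repeat bound by PPAR with its partner RXR, stood in none of them and in 0.033% of all windows. These counts describe letters in a short stretch and are not binding sites.

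Members differed widely in abundance. Per kilobase of the longest protein-coding transcript, the highest levels were those of the long-chain dehydrogenase gene Acadl (129 CPM per kb, where CPM is counts scaled by library size after TMM), the dienoyl-CoA isomerase gene Ech1 (127) and Etfb (116). Next came the thiolase gene Acaa2 (101) and the ketone body transferase gene Oxct1 (91.7). At the low end stood Ppara (4.93), the PGC-1 genes Ppargc1a (1.70) and Ppargc1b (1.64), and the muscle-type entry enzyme gene Cpt1b (0.103). The spread over the 4 Sham libraries (coefficient of variation) was 6.75% for Acadl, 6.52% for Ech1 and 8.77% for Etfb, and Acadl and Ech1 changed places between libraries, while Acadl lay above Etfb in each. In CPM, 16 members averaged at least 100 and 7 averaged under 25.

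**Figure D2:**
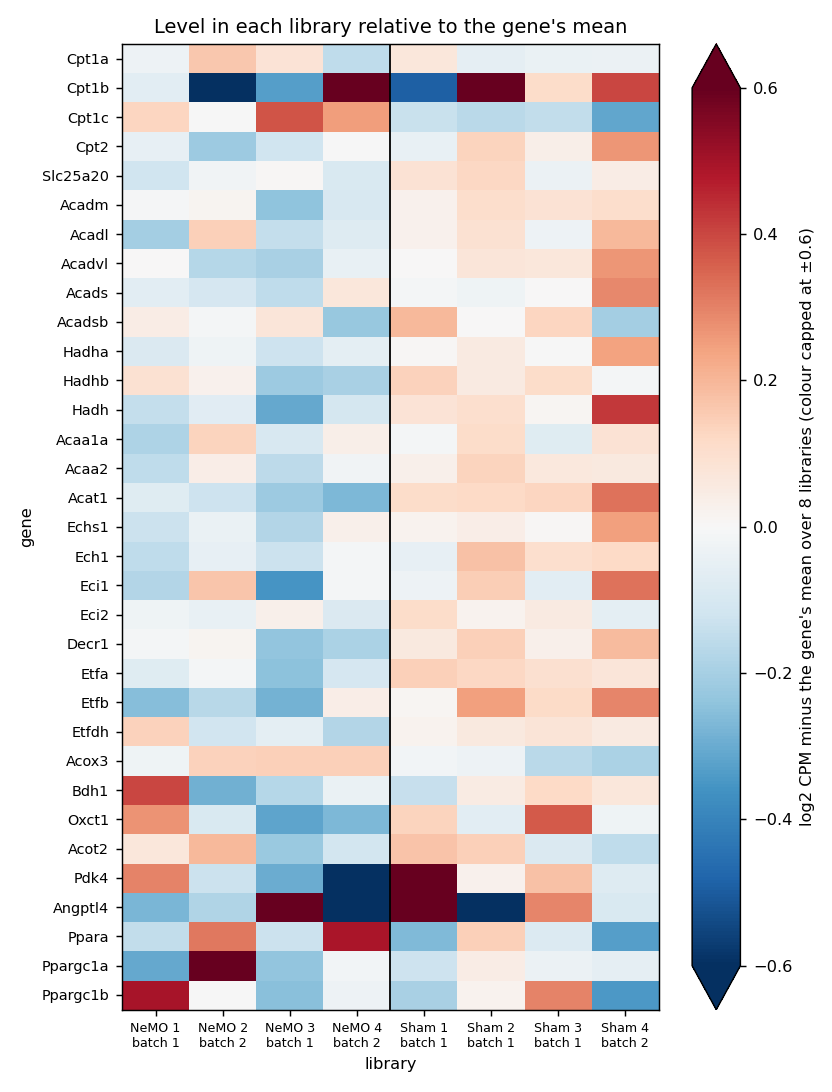
Level of each of the 33 genes (rows) in each of the 8 libraries (columns), as log2 CPM minus the gene's mean over all libraries. Red is above and blue below the mean, capped at 0.6, and the rows of the spiral genes are mostly blue in NeMO replicate 3 and red in Sham replicate 4.

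The carnitine shuttle carries long-chain acyl groups into the mitochondrion, and its 5 genes did not move as a unit. Cpt1a, which encodes the rate-limiting entry enzyme of most tissues, measured 200, 228, 216 and 183 CPM in NeMO replicates 1 to 4 and 214, 196, 198 and 199 CPM in Sham replicates 1 to 4. The Sham values lie inside the NeMO range, and the log2 fold change was 0.04 (SE 0.09, edgeR adjusted p = 0.843). It stood at −0.03 with the replicate number as a block and below 0 without NeMO replicate 2, so it has no settled sign. Cpt1c, the isoform known chiefly from neurons, measured 23.5, 21.4, 27.9 and 25.5 CPM in NeMO and 19.6, 19.2, 19.4 and 17.3 CPM in Sham. Every NeMO library lay above every Sham library (24.6 ± 2.78 against 18.9 ± 1.05 CPM, mean ± SD, n = 4 each, edgeR log2 fold change 0.42 with SE 0.10, adjusted p = 0.100, DESeq2 adjusted p = 0.0106). Of the Cpt1c transcript, 11.6% is shared with the antisense gene 6530437J22Rik, whose symbol does not stand in the count tables. The strand setting of the counting is not given, so reads of that gene may be included.

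Cpt1b is known as the isoform of striated muscle and brown fat. It was listed at 0.258, 0.0993, 0.204 and 0.526 CPM in NeMO and at 0.177, 0.450, 0.299 and 0.380 CPM in Sham, which rests on 3 to 19 reads per library. The groups overlap and the log2 fold change of −0.34 has an SE of 0.58 (edgeR adjusted p = 0.798). Of the transcript of Cpt1b, 94.8% is shared with the readthrough gene model Gm44502, whose symbol does not stand in the count tables. Among the 3 isoforms, per kilobase, Cpt1a made up 82.0 to 87.3% in NeMO and 86.6 to 87.9% in Sham, and Cpt1c 12.7 to 17.7% and 11.8 to 13.1%. The inner membrane enzyme gene Cpt2 (48.9, 43.6, 46.6 and 50.6 CPM in NeMO, 49.0, 55.6, 51.8 and 60.9 CPM in Sham) had a log2 fold change of −0.21 (SE 0.09, edgeR adjusted p = 0.231). Slc25a20, the carnitine-acylcarnitine carrier, stood at −0.11 (SE 0.07).

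The acyl-CoA dehydrogenases start each turn of the spiral and differ in the chain length they accept. All 5 genes had a log2 fold change below 0, with 4 at an unadjusted p under 0.05. Acadvl, which acts on very long chains, measured 145, 129, 127 and 140 CPM in NeMO and 145, 152, 152 and 174 CPM in Sham. NeMO replicate 1 (144.8) came within 1 CPM of Sham replicate 1 (145.1), and the groups did not overlap (edgeR log2 fold change −0.22 with SE 0.08, adjusted p = 0.190, or −0.11 with length and GC offsets and −0.36 in batch 2). Acadl stood at −0.19 (SE 0.08), the medium-chain gene Acadm at −0.18 (SE 0.07), with no overlap, and the short-chain gene Acads at −0.17 (SE 0.07). Acadsb, whose enzyme acts mainly on branched chains from isoleucine, stood at −0.00 (SE 0.08). A part of the Acadvl transcript (21.3%) overlaps the neighbouring gene Dvl2 on the other strand, and the strand setting of the counting is not given in the sources used here. Other members with exons overlapped from the other strand include Hadha (Garem2), Echs1 (Paox) and Acaa1a (Myd88).

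The next steps of the spiral include Hadh, the member with the smallest p, and Acat1. Hadh encodes the 3-hydroxyacyl-CoA dehydrogenase for medium and short chains and lies on chromosome 3 (131233419 to 131272101, minus strand, mm10). It measured 123, 130, 110 and 126 CPM in NeMO and 144, 146, 137 and 183 CPM in Sham. All NeMO libraries lay below all Sham libraries, and Sham replicate 4 was the highest of all. The means were 122 ± 8.66 and 153 ± 20.6 CPM (n = 4 each, edgeR log2 fold change −0.37 with SE 0.07, adjusted p = 0.0838, DESeq2 adjusted p = 0.00306). Without NeMO replicate 1, edgeR's test called Hadh, Acat1 and Cpt1c. Within batches the log2 fold change of Hadh was −0.29 in batch 1 and −0.50 in batch 2.

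Acat1, the mitochondrial acetoacetyl-CoA thiolase that serves both fat and ketone body breakdown, lies on chromosome 9 (53580522 to 53610382, minus strand). It measured 107, 103, 96.7 and 93.0 CPM in NeMO and 121, 122, 123 and 141 CPM in Sham. The groups were separated (99.9 ± 6.20 against 127 ± 9.31 CPM, edgeR log2 fold change −0.36 with SE 0.08, adjusted p = 0.0899, DESeq2 adjusted p = 0.00896). Echs1, the enoyl-CoA hydratase for short chains, measured 103, 109, 99.6 and 115 CPM in NeMO and 114, 116, 113 and 133 CPM in Sham. Only NeMO replicate 4 reached the Sham range (edgeR log2 fold change −0.20 with SE 0.06, adjusted p = 0.144). The thiolase gene Acaa2 stood at −0.17 (SE 0.07) and the peroxisomal thiolase gene Acaa1a at −0.10 (SE 0.07). Of the Acaa1a transcript, 17.4% matches Acaa1b at 98% identity or more, and Acaa1b averaged 201 CPM over the libraries.

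Hadha and Hadhb encode the alpha and beta subunits of the trifunctional protein, which carries out the last 3 steps on long chains. Hadha measured 273, 285, 266 and 278 CPM in NeMO and 291, 301, 289 and 343 CPM in Sham, with no overlap (edgeR log2 fold change −0.18 with SE 0.07, adjusted p = 0.216). Hadhb stood at −0.13 (SE 0.10) with overlapping groups. Although the subunits form 1 complex and the genes share the stretch printed above, Hadha was 5.17 times as abundant as Hadhb per kilobase on average, and 4.57 to 6.17 times in single libraries. Of the Hadhb transcript, 69.7% matches the processed pseudogene Gm13910 at 98% identity or more, and Gm13910 itself was counted at 0.961 to 2.25 CPM. The level of Hadhb is therefore uncertain, since how multi-mapping reads were counted is not given in the sources used here.

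Auxiliary enzymes prepare unsaturated fatty acids for the spiral. Eci1, the mitochondrial enoyl-CoA isomerase, measured 58.0, 73.6, 51.3 and 65.0 CPM in NeMO and 64.1, 72.6, 62.8 and 82.1 CPM in Sham. With offsets for length and GC content Eci1 stood at −0.10 and Ech1 (the dienoyl-CoA isomerase) at −0.03. The groups of Eci1 overlap through NeMO replicates 2 and 4, and the log2 fold change was −0.27 (SE 0.08, edgeR adjusted p = 0.149). Decr1, the dienoyl-CoA reductase, measured 120, 123, 103 and 106 CPM in NeMO and 126, 134, 124 and 138 CPM in Sham. Its groups were apart by about 1 CPM (122.9 against 123.9), with a log2 fold change of −0.22 (SE 0.08, edgeR adjusted p = 0.191). Ech1 measured 144, 155, 147 and 159 CPM in NeMO and 155, 181, 172 and 174 CPM in Sham (edgeR log2 fold change −0.19 with SE 0.07, adjusted p = 0.205). NeMO replicates 2 and 4 reached the level of Sham replicate 1. Eci2, found in peroxisomes and mitochondria, stood at −0.04 (SE 0.06).

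The electron transfer flavoprotein takes electrons from the dehydrogenases, and its oxidoreductase hands them to ubiquinone. Etfb, the beta subunit, lies on chromosome 7 (43444083 to 43457800, plus strand) and differed about as much as Hadh and Acat1. Of its transcript, 70.1% is shared with the gene model Gm45233 on the same strand, whose symbol does not stand in the count tables. It measured 86.1, 91.4, 84.3 and 106 CPM in NeMO and 103, 122, 111 and 126 CPM in Sham. NeMO replicate 4 stood above Sham replicate 1, and the other NeMO libraries lay below all Sham libraries. The means were 91.8 ± 9.68 and 115 ± 10.1 CPM (n = 4 each, edgeR log2 fold change −0.38 with SE 0.08, adjusted p = 0.0867, DESeq2 adjusted p = 0.00419). With offsets for transcript length and GC content the log2 fold change of Etfb was −0.19. Etfa, the alpha subunit, measured 106, 111, 94.1 and 104 CPM in NeMO and 123, 122, 119 and 117 CPM in Sham, with no overlap (edgeR log2 fold change −0.22 with SE 0.07, adjusted p = 0.161). Etfdh, the oxidoreductase, stood at −0.08 (SE 0.07).

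**Figure D3:**
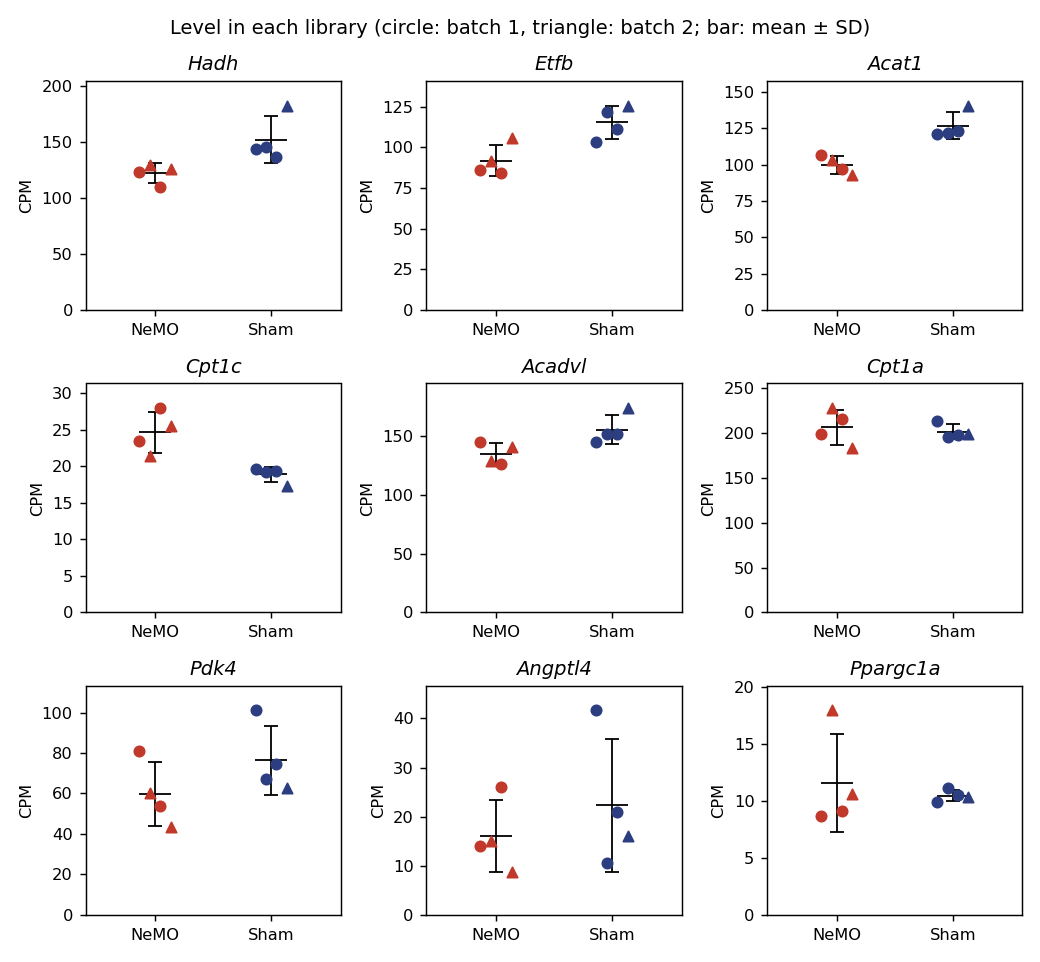
CPM (y axis, from 0) of 9 genes in the 4 NeMO and 4 Sham libraries, with circles for batch 1, triangles for batch 2 and bars for mean ± SD. Hadh, Acat1, Acadvl and Cpt1c show no overlap between the groups, while Etfb, Cpt1a, Pdk4, Angptl4 and Ppargc1a do overlap.

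Outside the spiral the members were mixed. Acox3, a peroxisomal acyl-CoA oxidase, measured 61.2, 68.6, 68.8 and 69.0 CPM in NeMO and 61.7, 61.0, 55.8 and 54.7 CPM in Sham. NeMO replicate 1 lay within the Sham range and the other 3 lay above it (edgeR log2 fold change 0.20 with SE 0.08, adjusted p = 0.225). Of the ketone body genes, Bdh1, the hydroxybutyrate dehydrogenase, stood at 0.00 (SE 0.14), with NeMO replicate 1 at 139 CPM and the other NeMO libraries at 86.1 to 102. Oxct1, which activates acetoacetate, ranged over 257 to 385 CPM in NeMO and 306 to 412 CPM in Sham (edgeR log2 fold change −0.15 with SE 0.14, adjusted p = 0.609). The thioesterase gene Acot2 stood at −0.03 (SE 0.14).

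Pdk4 and Angptl4 are widely used readouts of PPAR activity: Pdk4 blocks pyruvate entry so that fat is burned, and Angptl4 is a secreted inhibitor of lipoprotein lipase. Pdk4 measured 81.2, 60.4, 53.7 and 43.4 CPM in NeMO and 101, 67.2, 74.7 and 62.7 CPM in Sham. Replicate 1 was the highest of its group in both, and the groups overlap (edgeR log2 fold change −0.27 with SE 0.19, adjusted p = 0.481). Angptl4 measured 14.1, 15.1, 26.1 and 8.82 CPM in NeMO and 41.6, 10.6, 21 and 16.1 CPM in Sham. Its spread in Sham (coefficient of variation 60.7%) was the widest of the members in that group. The log2 fold change was −0.33 (SE 0.45, edgeR adjusted p = 0.733) and 0.03 without Sham replicate 1, the library at 41.6 CPM.

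The 3 regulators stood at or above 0 with wide errors. Ppara measured 14.9, 20.6, 15.1 and 23.2 CPM in NeMO and 13.7, 18.3, 15.6 and 13.1 CPM in Sham. NeMO replicates 2 and 4, the batch 2 libraries, lay above all Sham libraries. The log2 fold change was 0.20 (SE 0.18, edgeR adjusted p = 0.577), with −0.08 in batch 1 and 0.75 in batch 2. Ppargc1a measured 8.68, 17.9, 9.11 and 10.6 CPM in NeMO and 9.86, 11.1, 10.5 and 10.4 CPM in Sham. Only NeMO replicate 2 stood above the Sham range, and the log2 fold change was 0.01 (SE 0.21, edgeR adjusted p = 0.992), or −0.24 in batch 1 and 0.47 in batch 2. Ppargc1b stood at 0.19 (SE 0.21).

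**Figure D4:**
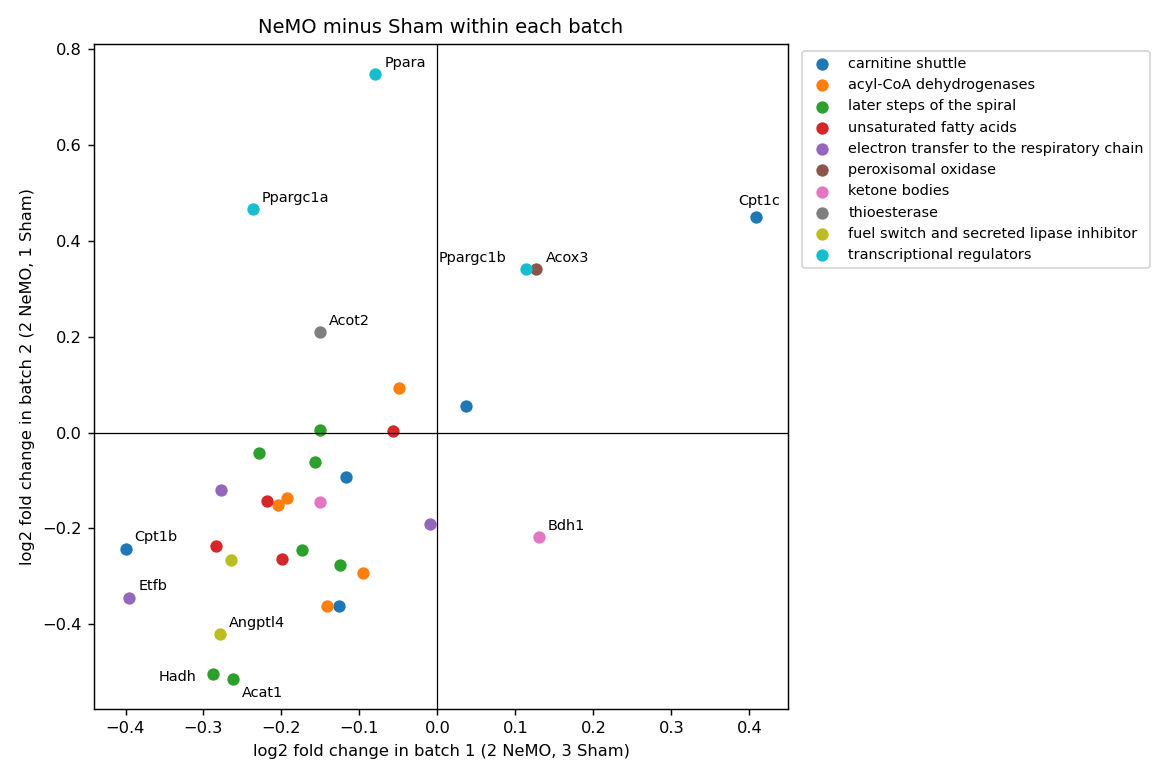
Log2 fold change (NeMO minus Sham) of each gene in batch 1 (x axis) and batch 2 (y axis), coloured by role. Of the 33 genes 22 lie below 0 in both batches and 4 above 0 in both, while Ppara and Ppargc1a are near or below 0 in batch 1 and above 0 in batch 2.

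The summed level of the 33 genes was 3221, 3239.5, 2956 and 3057 CPM in NeMO and 3417, 3415, 3432.5 and 3558 CPM in Sham. The highest NeMO library thus lay below the lowest Sham library. NeMO replicate 3 held the lowest value of 12 of the 19 spiral and electron transfer genes, and Sham replicate 4 the highest value of 10 of them. The median log2 fold change of the 33 members was −0.15 in batch 1 and −0.14 in batch 2, where Sham is that single library. Without NeMO replicate 3 the median was −0.14, with 24 of 33 below 0 and 5 lower at an unadjusted p under 0.05. Without Sham replicate 4 it was −0.15, with 28 below 0 and 8 at that p. Over all genes, 2271 of 16600 and 1656 of 16610 stood at that p in either direction in these 2 fits.

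Other quantities moved beside these genes. The 13 adipocyte markers were all lower in NeMO (median log2 fold change −1.21, 9 at an unadjusted p under 0.05, none past the edgeR threshold, 3 fell with DESeq2). Over all genes tested 9.14% were lower at that p and 2.5% fell with DESeq2. The summed level of the 13 markers was 1403, 1112.5, 613.5 and 1975 CPM in NeMO and 2554, 1889, 1589 and 4274 CPM in Sham, and none was at 0. NeMO replicate 3 had the lowest and Sham replicate 4 the highest value of both this sum and the summed member level. NeMO replicate 4 had a higher adipocyte sum than Sham replicates 2 and 3 and a lower member sum than every Sham library. Counts from the mitochondrial genome took 1.62 to 2.65% in NeMO and 2.64 to 3.20% in Sham. The part of either quantity in the lower levels of oxidation genes was not tested. In bulk tissue, fewer cells of a type and less RNA per cell cannot be told apart.

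The tissue label was checked against markers. Summed smooth muscle markers stood at 29972 to 55691 CPM in NeMO and 35042 to 47036 CPM in Sham, and urothelial markers at 5156 to 7643 and 6403 to 8501 CPM. Of 7 brown adipocyte markers, Ucp1, Elovl3 and Otop1 stayed under 1 CPM in every library. Of the 4 tested (median −1.07), 3 were lower in NeMO, with Sham means of 1.96 CPM (Cidea), 2.59 (Cox7a1) and 1.79 (Cox8b). The most abundant, Dio2, was higher in NeMO (17.3 against 9.64 CPM, log2 fold change 0.93). The summed level of the list was 13.3 to 27.6 CPM in NeMO and 14.5 to 18.5 CPM in Sham. Of the urothelial markers 9 of 10 were below 0 (median −0.42, 6 lower at an unadjusted p under 0.05, 6 fell with DESeq2). Over all genes tested 51.7% were below 0, 9.14% were lower at that p and 2.5% fell with DESeq2. The urothelial list was not uniform, since Krt5 (−0.08), Grhl3 (−0.04) and Trp63 (0.08) stood near 0. Macrophage (8 of 8, median −0.30) and nerve and Schwann cell markers (6 of 6, median −0.56) were also below 0. Smooth muscle, fibroblast and endothelial markers had medians of 0.02, 0.02 and 0.12, skeletal muscle markers −0.13 and T and B cell markers −0.42.

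**Figure D5:**
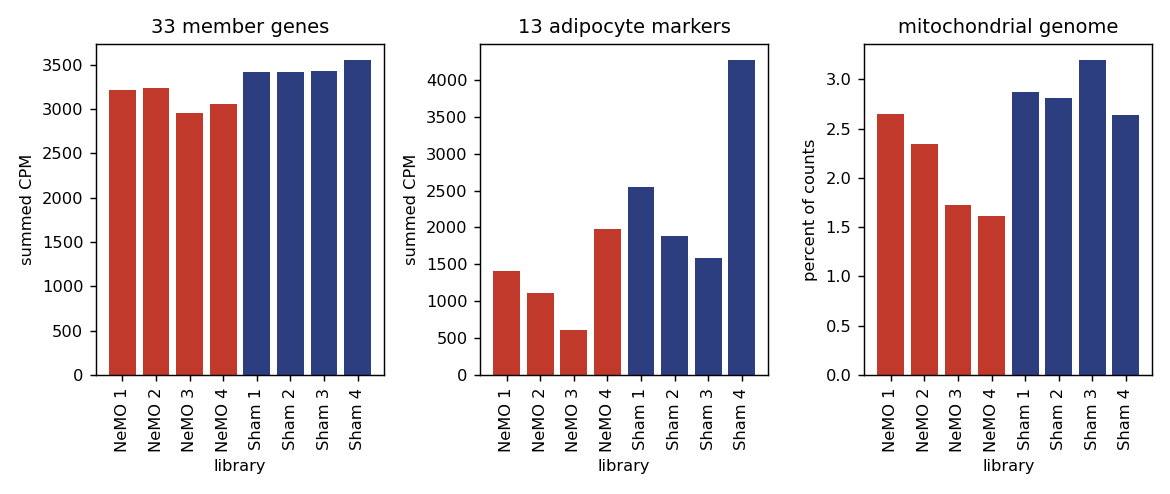
Summed CPM of the 33 genes (left), summed CPM of 13 adipocyte markers (middle) and percent of counts from the mitochondrial genome (right) in each library, with NeMO in red and Sham in blue. The member sums are 2956 to 3239.5 for NeMO, 3415 to 3558 for Sham, and Sham replicate 4 has the highest adipocyte sum (4274).

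The members were also set against genes of like transcript length. Length here was that of a gene's longest transcript of any type, with a median of 3261 nucleotides over the 33 members and 3211 over all genes tested. For some members it exceeds the longest protein-coding transcript used for levels per kilobase (Hadh 3751 against 1789, Echs1 4088 against 1557). The bin of such a member may therefore not match the length of its mRNA. Against the other genes of their length bin (8 bins), 26 of the 33 members lay below the median of their bin. Over all 33, the median difference from the bin median was −0.11 on the log2 scale. With offsets for length and GC content the median of the members was −0.11 and 26 of 33 were below 0, while 6 rather than 15 were lower at an unadjusted p under 0.05. Over all genes, 2144 of 16189 stood at that p in either direction with the offsets, against 3032 of 16370 in the main fit.

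Genes of the same pathway outside the 33 members were counted from 8 lists, and none of them passed edgeR's test. DESeq2's Wald test called genes lower in NeMO in 5 of the lists: 2 of peroxisomal beta-oxidation, 4 of uptake and activation, 2 of the helper enzymes, 3 of malonyl-CoA and pyruvate dehydrogenase control and 3 of the other PPAR targets. It called 1 higher, the regulator gene Ncor1 (DESeq2 adjusted p = 0.0193). Over all genes tested, DESeq2 called 2.5% lower and 3.32% higher. Of all genes 51.7% were below 0, and 9.14% were lower and 9.38% higher at an unadjusted p under 0.05. The counts of every list below stand against these shares. Decr2 is counted both under peroxisomal beta-oxidation and under the helper enzymes. Peroxisomal beta-oxidation, which shortens very long chains, had 13 of 15 tested genes below 0 (median −0.16, 5 lower and 0 higher at an unadjusted p under 0.05). Its smallest p belonged to the peroxisome division gene Pex11a (14.5 ± 2.92 CPM in Sham, 10.4 ± 2.40 in NeMO, edgeR log2 fold change −0.57 with SE 0.17, adjusted p = 0.145), and its most abundant member Abcd3 stood at −0.00 (SE 0.09). Other acyl-CoA dehydrogenases and helper enzymes, mostly of amino acid breakdown, had 16 of 16 below 0 (median −0.15, 3 at that p). The valine pathway gene Hibadh (edgeR log2 fold change −0.35 with SE 0.09, adjusted p = 0.107) had the smallest p, and Ivd, of leucine breakdown, was the most abundant (−0.15, SE 0.08).

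Fatty acid uptake and activation had 13 of 16 genes below 0 and the lowest median of the 8 lists (−0.34, 6 lower and 1 higher at an unadjusted p under 0.05). Dbi, which encodes the acyl-CoA binding protein, measured 81.4 ± 13.2 CPM in NeMO and 116 ± 27.6 in Sham (edgeR log2 fold change −0.60 with SE 0.10, adjusted p = 0.0691). Lpl, the lipoprotein lipase, was the most abundant (198 ± 76.4 against 290 ± 81.6 CPM, edgeR log2 fold change −0.59 with SE 0.34, adjusted p = 0.396). Several genes of this list, Lpl among them, are also highly expressed in adipocytes, whose markers were lower. The part of adipocytes in the levels of this list was not tested.

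Ketone body synthesis and use had 6 of 8 tested genes below 0 (median −0.20, 4 lower at an unadjusted p under 0.05). The monocarboxylate carrier gene Slc16a7 had the smallest p (edgeR log2 fold change −0.27 with SE 0.09, adjusted p = 0.178). Acyl-CoA thioesterases had 7 of 8 below 0 (median −0.07, 0 at that p), with Acot1 at −0.26 (SE 0.14) and the abundant Acot7 at −0.23 (SE 0.13).

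Malonyl-CoA, the inhibitor of the entry enzyme, and pyruvate dehydrogenase control had 13 of 19 genes below 0 (median −0.14, 5 lower at an unadjusted p under 0.05). Acacb, the acetyl-CoA carboxylase whose malonyl-CoA restrains Cpt1, measured 27.8 ± 8.73 CPM in NeMO and 51.9 ± 20.6 in Sham (edgeR log2 fold change −1.03 with SE 0.18, adjusted p = 0.0784, DESeq2 adjusted p = 2.67e-05). The pyruvate dehydrogenase subunit gene Pdha1 was the most abundant (−0.20, SE 0.09). Further transcriptional regulators had 11 of 19 below 0 (median −0.08, 2 higher and 2 lower at that p), with the corepressor gene Ncor1 at 0.23 (SE 0.07, edgeR adjusted p = 0.132) and the PPAR partner gene Rxra, the most abundant, at −0.21 (SE 0.08). Other PPAR targets had 8 of 11 below 0 (median −0.18, 4 lower at that p), with the lipase inhibitor gene G0s2 at −1.03 (SE 0.23, edgeR adjusted p = 0.0994) and the abundant Txnip at 0.02 (SE 0.18). The 13 adipocyte markers were lower as well (median log2 fold change −1.21), and the part of adipocytes in the levels of Acacb and G0s2 was not tested.

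The genes whose level followed that of Hadh most closely over the 8 libraries were Ppa1 (Pearson r 0.988 on log2 CPM), Gar1 (0.984), Hadha (0.982), Gtf2h4 (0.978) and Hsp90ab1 (0.977). All 5 had log2 fold changes below 0, from −0.48 (Ppa1) to −0.18 (Hadha). These correlations are a description over 8 libraries that share the group difference and the batches.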

How the data were processed

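Per the submitters' processing notes, reads were handled with Trimmomatic, STAR, featureCounts and DESeq2 on mm10, with no versions. The authors deposited whole-number read counts per gene symbol, 1 table per library, and these were used as deposited. The annotation used, the strand setting and how multi-mapping reads were treated were each left unstated there (not given in the sources used here). Groups come from titles and treatment labels, batches from submitted file names. All within-group library pairs differed by more than sampling noise.

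Tests ran in R 4.3.3 (edgeR 4.0.16, DESeq2 1.42.0). The filter was filterByExpr (minimum count 10, total 15), leaving 16370 genes, with TMM scaling. At 1 CPM a library held 26.3 to 36.2 reads. The quasi-likelihood test (robust, batch and group, two-sided) was adjusted by Benjamini-Hochberg over all genes and was tested on simulated data. DESeq2's adjusted p was left as NA where DESeq2 gave none (Cpt1b).

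Members and gene lists were chosen with earlier results of these data known. Full values are given for the 10 members with the smallest p and for Cpt1a, Cpt1b, Pdk4, Angptl4, Ppara and Ppargc1a. For each pathway list the gene with the smallest p and the most abundant gene are named, except 1 gene that is not reported here. Cpt2, Hadha, Acox3, Bdh1 and Oxct1 were given library values or ranges after their values were seen. Adgre1 was read under its older symbol Emr1. Positions and lengths come from GENCODE M21 (GRCm38). Length and GC offsets used the longest transcript of any type and splines with 4 degrees of freedom each. Alternatives were another test, scaling, filter, batch handling, replicate block and leaving out each library.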

Additional observations from a re-analysis of the deposited data

Results flagged for a closer look

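Among the 33 members, 66 sets of 4 libraries (33 genes in 2 groups) were searched for a single library standing apart from the other 3, and 6 were found. Chance gives about 1 in 20. Of the 6, 4 concern Sham replicate 4, the only Sham library of batch 2. Acads, the short-chain dehydrogenase, was 78.1 CPM there against 63.0 to 64.2 in the other Sham libraries. Acat1 was 141 CPM against 121 to 123, and Echs1 133 CPM against 113 to 116. Cpt1c was 17.3 CPM there against 19.2 to 19.6. Cpt1a in Sham replicate 1 was 214 CPM against 196 to 199. Acox3 in NeMO replicate 1 was 61.2 CPM against 68.6 to 69.0.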

How the results depend on the processing

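The median log2 fold change of the 33 members stayed below 0 in all 16 alternatives, from −0.195 without NeMO replicate 1 to −0.111 with offsets for transcript length and GC content, and 23 to 28 members were below 0. The number past the threshold moved more. DESeq2's Wald test called 953 genes and 4 members, no filter on low counts 172 genes, and no batch term 7 genes. The edgeR fit within batch 1 called 0 genes, with 1756 at an unadjusted p under 0.05. The fit within batch 2 called 7 genes, where the spread of its lone Sham library is taken from the NeMO pair. Members lower at an unadjusted p under 0.05 numbered 8 with no batch term, 8 in batch 1 and 6 with the length and GC offsets. Members higher at that p numbered 2, 1 and 2. Over all genes, 2231 of 16370, 1756 of 16744 and 2144 of 16189 stood at that p in either direction in these fits. Leaving out 1 library gave 0 to 650 genes past the threshold, 0 to 3 members past it and 5 to 13 members lower at an unadjusted p. In those fits, 1656 to 3581 genes stood at an unadjusted p under 0.05 in either direction. The cause of these differences was not tested.

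Whether the replicate numbers pair the samples could not be settled. Same-numbered libraries correlated at −0.00958, 0.082, 0.0438 and 0.324 after removing group means but not batch means. Only NeMO 2 and NeMO 4 correlated best with their own number. NeMO 4 and Sham 4 are both of batch 2, so pairing and batch cannot be told apart for them. NeMO 2 and Sham 2 differ in batch, and their correlation was 0.082. Within batch 1, NeMO 1 correlated best with Sham 3 (0.139) and NeMO 3 with Sham 1 (0.255). With the replicate number as a block beside the batch term, 2 genes and 0 members passed, and 8 members were lower at an unadjusted p under 0.05. Over all genes, 2227 of 16370 stood at that p in either direction in this fit.

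Of the 16 members given in full, 5 changed sign in at least 1 alternative, and none of these 5 passed the threshold in any. With the replicate block the log2 fold change was −0.0308 for Cpt1a, 0.165 for Cpt1b and −0.118 for Ppargc1a. Batch 1 gave −0.0799 for Ppara and −0.237 for Ppargc1a, and the length and GC offsets −0.131 for Ppargc1a. Leaving out 1 library gave −0.00872 (without NeMO 2) to 0.0845 for Cpt1a and −0.622 to 0.0321 (without Sham 1) for Angptl4. It gave −0.0805 (without Sham 4) to 0.315 for Ppara and −0.238 (without Sham 4) to 0.116 for Ppargc1a, which stood at −0.157 without NeMO 2. Depth limits Cpt1b most, at 3 to 19 reads a library.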

Other observations

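Of the pathway lists, 3 genes were higher in NeMO at an unadjusted p under 0.05, and they were picked out after their values were seen. They were 1 of 16 tested genes of uptake and activation and 2 of 19 regulators, with none in the other lists. Over all genes tested, 9.38% were higher at that p. The corepressor gene Ncor1 averaged 204 CPM in NeMO and 177 in Sham, with no overlap, and rose by DESeq2 (adjusted p = 0.0193) but not by edgeR (adjusted p = 0.132). Acsl4, an acyl-CoA synthetase known for its preference for arachidonic acid, measured 69.0 ± 4.41 CPM in NeMO and 60.5 ± 3.40 in Sham (edgeR log2 fold change 0.22 with SE 0.07, adjusted p = 0.149). Gabpa, a subunit of the nuclear respiratory factor NRF-2, averaged 68.1 CPM in NeMO against 57.7 in Sham (edgeR log2 fold change 0.32 with SE 0.10, adjusted p = 0.166). Acsl4 and Gabpa passed the threshold of neither edgeR nor DESeq2 (DESeq2 adjusted p = 0.0731 and 0.0931).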
